A study of Homo sapiens with 8 samples.

Results

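A set of 10 genes of the epithelial-mesenchymal transition was followed through RNA-seq of 2 lines of human colorectal cancer cells, RKO and SW480, in which the level of the cytochrome P450 gene CYP1B1 had been changed. The genes were listed by name for their roles: the transcription factor genes ZEB1, ZEB2, SNAI1, SNAI2 and TWIST1, the cytoskeletal genes VIM and FSCN1, and the secreted matrix genes FN1, SPARC and LOXL2. They, the other gene lists used below and the tests were chosen with earlier results of these data known. Counts of called genes set beside the share over all genes are therefore descriptions only. All 10 were among the 16829 genes of the count table, and 8 of them had enough counts to be among the 14157 genes tested. There were 4 groups of 2 libraries each. RKO cells labelled CYP1B1 overexpression were set against RKO cells labelled CYP1B1 normal control, and SW480 cells labelled CYP1B1 knockdown (shCYP1B1, 1 short hairpin) against SW480 cells with the shNT construct, labelled CYP1B1 normal control. The treatment note gives a CYP1B1 lentivirus for both lines and names no drug, and with 1 hairpin an effect of its sequence on other transcripts cannot be told apart from the loss of CYP1B1. The labels do not say that the 2 libraries of a group came from separate cultures, so the p-values measure the spread between these libraries, which may be technical.

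In the epithelial-mesenchymal transition, cells lose the junctions and polarity of an epithelium and gain motility. ZEB, SNAI and TWIST proteins drive it, ZEB and SNAI as zinc finger repressors that bind E2-boxes (CACCTG) in epithelial genes such as CDH1, and TWIST1 as a basic helix-loop-helix factor. Downstream, vimentin replaces part of the keratin network, fascin bundles the actin of protrusions, and fibronectin, SPARC and the collagen crosslinking oxidase LOXL2 remodel the matrix around the cell. In bowel tumours these genes are also expressed by stromal fibroblasts, which a pure culture of a line does not hold.

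CYP1B1 itself followed the labels. With overexpression it had 437 and 519 CPM (counts scaled to library size, with TMM factors), against 0.686 and 0.701 CPM in RKO control cells, a log2 fold change of 9.42. With shCYP1B1 it had 0.367 and 0.301 CPM, against 1.44 and 2.20 CPM in shNT cells, a change of -2.44. Total counts lay between 31550173 and 34921085. The overexpression pair was the least alike: 6.14% of its genes differed by more than 0.5 on the log2 scale between the libraries, against 0.325%, 0.235% and 0.214% in the control, shCYP1B1 and shNT pairs. The label of colon cancer cells was checked against 13 colorectal epithelial markers found in the table. Their summed level was 5716 to 5763 CPM in shCYP1B1 and 5091 to 5305 CPM in shNT libraries, with 8 markers above 1 CPM, whereas in RKO it was 283 to 298 CPM with overexpression and 250 to 264 CPM in control, with 4 markers above 1 CPM. The epithelial cadherin gene CDH1 averaged 0.191 CPM in overexpression and 0.166 CPM in control RKO cells, so this defining marker was near 0 in that line. The leukocyte gene PTPRC and the endothelial gene PECAM1 reached at most 0.258 and 0.201 CPM in any library. These genes do not stand for their lists. In RKO the 8 immune markers summed to 663 to 685 CPM with overexpression and 691 to 773 CPM in control, through CD68. The 7 endothelial markers summed to 146 to 186 CPM with overexpression and 133 to 141 CPM in RKO control, through EGFL7.

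The promoter stretches of 3 members are shown because their genes behave differently in these libraries: ZEB1, present in both lines, VIM, high in SW480, and FN1, high in SW480 but not raised by knockdown. They were taken from the RefSeq promoter table (GRCh38.p14), which holds windows of 250 bases before to 50 bases after a gene's start, for 5 of the 10 members (7 windows for ZEB1). The stretches lie at chr10:31318167-31318416 on the plus strand (ZEB1, the first of its windows), chr10:17227991-17228240 on the plus strand (VIM) and chr2:215436173-215436318 on the minus strand (FN1, the 146 bases outside the annotated untranslated region). Capitals mark E-boxes (CANNTG, which include the E2-box CACCTG and its other strand CAGGTG) and GC-boxes (GGGCGG, other strand CCGCCC), all printed 5′ to 3′ on the strand of the gene:
ZEB1: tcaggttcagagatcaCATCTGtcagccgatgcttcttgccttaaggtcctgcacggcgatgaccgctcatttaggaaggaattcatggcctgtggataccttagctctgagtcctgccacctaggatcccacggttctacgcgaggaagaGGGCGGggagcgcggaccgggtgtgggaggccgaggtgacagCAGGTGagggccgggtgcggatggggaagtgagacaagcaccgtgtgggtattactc
VIM: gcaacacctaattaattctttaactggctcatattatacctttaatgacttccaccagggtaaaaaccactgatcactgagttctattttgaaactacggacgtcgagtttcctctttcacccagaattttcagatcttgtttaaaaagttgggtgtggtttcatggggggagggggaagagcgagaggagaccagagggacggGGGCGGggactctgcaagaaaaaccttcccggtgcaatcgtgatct
FN1: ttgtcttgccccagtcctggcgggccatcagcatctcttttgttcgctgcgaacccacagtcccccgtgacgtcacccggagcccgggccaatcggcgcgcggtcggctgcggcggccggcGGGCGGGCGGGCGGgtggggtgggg
An E2-box was found in 1 of the 5 members with windows, ZEB1, in 2 of its 7 windows; in the stretch above it is CAGGTG and begins at -57 from the start. Of all 35116 windows, 20.6% hold an E2-box, 68.7% an E-box and 45% a GC-box. VIM has 1 GC-box and no E-box in the stretch shown, and FN1 has 3 overlapping GC-boxes in a stretch of 74% G and C. The GC-box was added after the sequences had been read. A match is a string of letters and does not show binding, and a stretch without one says nothing of the factor.

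The control cells of the lines differed far more in VIM, FN1, SPARC, LOXL2 and SNAI2 than in ZEB1, SNAI1 and FSCN1. VIM, the intermediate filament gene (chromosome 10, 17228259 to 17237593, plus strand), had 671 and 629 CPM in SW480 shNT cells, against 9.38 and 8.74 CPM in RKO control cells. FN1, the fibronectin gene (chromosome 2, 215360440 to 215436172, minus strand), had 165 and 172 CPM in SW480 shNT cells, against 0.436 and 0.409 CPM in RKO control cells. These are log2 fold changes of 6.16 (SE 0.13) and 8.63 (SE 0.14). SPARC, which encodes a collagen-binding matricellular protein (chromosome 5, 151661096 to 151687165, minus strand), and LOXL2 stood at 113 to 114 and 52.6 to 54.1 CPM in shNT cells, against 0.555 to 0.872 and 0.810 to 0.877 CPM in RKO control cells. SNAI2, the Slug gene, had 32 and 80 counts in shNT cells and 0 and 1 in RKO control cells, a ratio of 107 (95% interval 18.9 to 4280, counting error only).

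ZEB1 and SNAI1 ran the other way. ZEB1 (chromosome 10, 31318495 to 31529814, plus strand) had 31.1 CPM in both shNT libraries, against 81.2 and 72.6 CPM in RKO control, a log2 fold change of -1.30 (SE 0.09). SNAI1, the Snail gene (chromosome 20, 49982999 to 49988886, plus strand), had 13.3 and 12.1 CPM in shNT libraries, against 20.1 and 20.8 CPM in RKO control, a change of -0.69 (SE 0.12). RKO control cells were thus the higher of the lines in these factors and the lower in VIM, FN1, SPARC, LOXL2 and SNAI2. FSCN1, the fascin gene (chromosome 7, 5592823 to 5606655, plus strand), was close between them, with 126 and 129 CPM in shNT and 108 and 101 CPM in RKO control (log2 fold change 0.28, SE 0.11, adjusted p = 0.0363). That call held in only 6 of 16 alternatives, with changes of 0.23 to 0.33 over all of them. It was lost without any 1 of the RKO control, shNT or shCYP1B1 libraries, and also in other settings. In this comparison 6 of the 8 tested members were higher and 2 lower (edgeR quasi-likelihood test, Benjamini-Hochberg adjusted p below 0.05), where 76.8% of all genes passed, 41.2% higher and 35.6% lower. The line, its virus construct and its type of control cannot be told apart here.

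ZEB2 and TWIST1 were close to absent at this depth in both lines. ZEB2, the sister repressor of ZEB1, had 0 and 6 counts with overexpression and 4 and 1 in RKO control, and 1 and 0 with shCYP1B1 and 0 and 3 in shNT. TWIST1 had 1 count in a single RKO control library and 0 counts in the 7 others, where 3 counts would be 0.0860 to 0.0935 CPM. These genes were not tested, and no difference in them was detectable. With SNAI2 at 0 and 4 counts in overexpression libraries, the driver genes with a measurable level in RKO were ZEB1 and SNAI1.

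**Figure D1:**
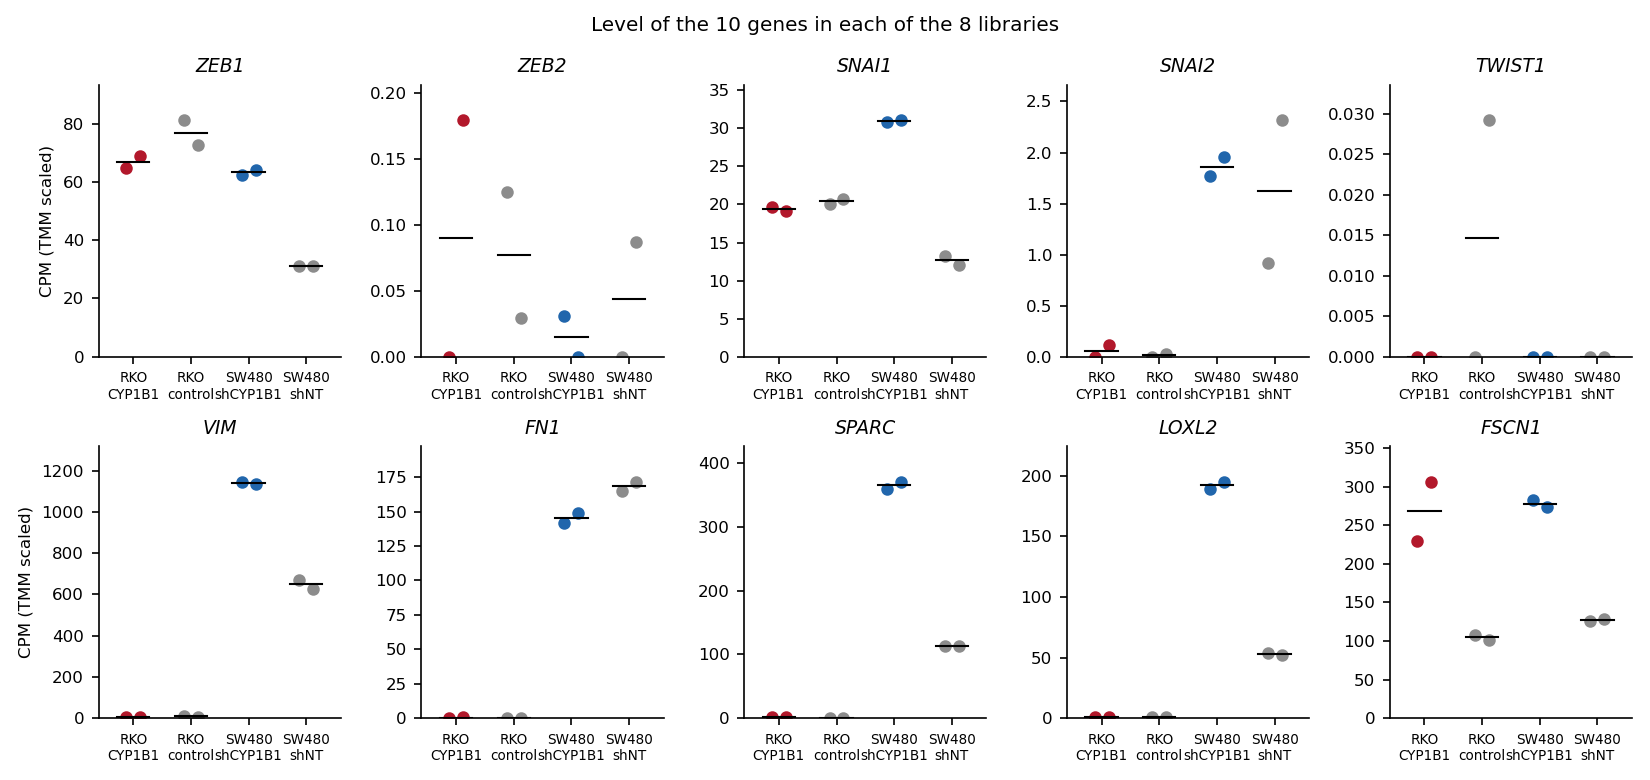
Level of the 10 genes in CPM (TMM scaled) in each of the 8 libraries, with 1 panel per gene and an axis that starts at 0; points are libraries and bars are the means of 2. VIM, FN1, SPARC and LOXL2 are near 0 in RKO on these axes, ZEB1 and SNAI1 are present in all groups, and FSCN1 is raised in both manipulated groups.

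Knockdown of CYP1B1 in SW480 was accompanied by higher transcript levels of most of the measured set. Of the 8 members tested, 6 rose and 1 fell, with a median log2 fold change of 1.07. Of all genes tested, 50.6% passed in this comparison, 25.3% in each direction, with a median of -0.0037. The change covered both factors and effectors: ZEB1 and SNAI1, then VIM and FSCN1, then SPARC and LOXL2, between 1.76-fold for VIM and 3.60-fold for LOXL2. These 6 calls held in all 17 alternative analyses.

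Among the factors, ZEB1 had 62.2 and 64.2 CPM with shCYP1B1, against 31.1 CPM in both shNT libraries. The groups did not overlap, and ZEB1 rose by 1.02 on the log2 scale (SE 0.09, adjusted p = 3.36e-06, from edgeR as above). SNAI1 had 30.9 and 31.1 CPM with shCYP1B1, against 13.3 and 12.1 CPM in shNT libraries, a change of 1.29 (SE 0.12, adjusted p = 5.37e-06). With shCYP1B1, SNAI1 stood above every RKO library, and ZEB1 below every RKO library. SNAI2 did not pass: 1.77 and 1.95 CPM with shCYP1B1 lay between the shNT values of 0.923 and 2.32 CPM (log2 fold change 0.20, SE 0.63, adjusted p = 0.811). Its 2 shNT libraries, with 32 and 80 counts, differed more from each other than the groups did.

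Of the cytoskeletal genes, VIM was the most abundant member. It had 1147 and 1134 CPM with shCYP1B1, against 671 and 629 CPM in shNT cells, and rose by 0.81 on the log2 scale (SE 0.10, adjusted p = 5.28e-05). Per length, in the deposited FPKM, it averaged 511 ± 4.80 with shCYP1B1 and 299.8 ± 12.6 in shNT cells (SD, n = 2), above 99.5% and 99.1% of the genes in the table. FSCN1 had 282 and 273 CPM with shCYP1B1, against 126 and 129 CPM in shNT cells, and rose by 1.13 (SE 0.11, adjusted p = 1.03e-05). VIM took 64.0% and 63.5% of the summed FPKM of the members with shCYP1B1, against 71.6% and 70.0% in shNT cells. Its share was smaller with knockdown although its own level was higher, and SPARC, LOXL2 and FSCN1 changed by more.

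The secreted genes split. SPARC had 359 and 371 CPM with shCYP1B1, against 113 and 114 CPM in shNT cells, and LOXL2 had 189 and 195 CPM, against 54.1 and 52.6 CPM. Their log2 fold changes of 1.69 (SE 0.09, adjusted p = 2.63e-07) and 1.85 (SE 0.08, adjusted p = 5.70e-08) were the largest among the tested members in this comparison. FN1 had 142 and 149 CPM with shCYP1B1, against 165 and 172 CPM in shNT cells, and fell by 0.21 on the log2 scale (SE 0.08, adjusted p = 0.0363). The FN1 groups did not overlap, but the call was lost in 11 of 17 alternatives, among them DESeq2 (adjusted p = 0.0968), RLE scaling (0.0639), and the removal of any 1 control, shNT or shCYP1B1 library (0.0575 to 0.25), with changes between -0.26 and -0.17 over all of them.

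Overexpression of CYP1B1 in RKO was accompanied by higher FSCN1, and by higher SPARC and LOXL2 at levels near 1 CPM, with no call for ZEB1, SNAI1, VIM or FN1. Of the 8 members tested 3 rose, where 13.8% of all genes were called higher and 13.8% lower, 27.6% in all. The members' median log2 fold change was 0.59 and that of all genes 0. The 8 include SNAI2, which had enough counts for testing only in SW480. Its RKO value of 1.74 (SE 1.75), from 4 counts with overexpression and 1 in control, enters the members' median. By edgeR's test 0 members were called lower, 0 by DESeq2 and 0 by limma on FPKM, and 2 (ZEB1 and VIM) were lower at an unadjusted p below 0.05.

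FSCN1 had 230 and 307 CPM with overexpression, against 108 and 101 CPM in control cells. The groups were far apart, although the overexpression libraries differed from each other by more than the controls did, and the mean was 268 ± 54.2 CPM with overexpression and 105 ± 5.10 CPM in control (SD, n = 2). FSCN1 rose by 1.36 on the log2 scale (SE 0.11, adjusted p = 5.10e-05), and it kept its call in all 17 alternatives, between 1.14 and 1.55. VIM had 8.60 and 6.13 CPM with overexpression, against 9.38 and 8.74 CPM in control cells (log2 fold change -0.30, SE 0.13, adjusted p = 0.119). Both overexpression libraries lay below both controls, yet the value rested on 1 of them: it was -0.56 (adjusted p = 0.000286) without overexpression replicate 1 and -0.07 (adjusted p = 0.659) without overexpression replicate 2.

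SPARC had 61 and 43 counts with overexpression, or 1.75 and 1.29 CPM, against 28 and 19 counts in control cells, or 0.872 and 0.555 CPM. Its log2 fold change was 1.10 (SE 0.23, adjusted p = 0.00498). LOXL2 had 1.41 and 1.35 CPM with overexpression, against 0.810 and 0.877 CPM in control cells, a change of 0.70 (SE 0.18, adjusted p = 0.0175). In both genes every overexpression library lay above every control library, at levels far under those in SW480 shCYP1B1 cells. The SPARC call was lost in 3 of 17 alternatives: without control replicate 2 (0.81, adjusted p = 0.0578), with the RKO libraries fitted alone (adjusted p = 0.149), and with limma on log2 FPKM plus 1, a scale that understates changes of low genes (0.25, adjusted p = 0.0505). The LOXL2 call was lost in 5 of 17, without control replicate 1 (0.65, adjusted p = 0.104), control replicate 2 (0.77, 0.0675) or overexpression replicate 1 (0.67, 0.0538), in RKO alone (adjusted p = 0.286), and with limma on log2 FPKM plus 1 (0.16, adjusted p = 0.142).

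FN1 had 0.488 and 0.688 CPM with overexpression, against 0.436 and 0.409 CPM in control cells, from 40 and 28 counts in all (log2 fold change 0.47, SE 0.27, adjusted p = 0.328). The factors ZEB1 and SNAI1 had lower means with overexpression. ZEB1 had 64.8 and 68.9 CPM with overexpression, against 81.2 and 72.6 CPM in control cells (-0.20, SE 0.08, adjusted p = 0.0934, and 0.0298 at -0.25 without overexpression replicate 2). SNAI1 had 19.7 and 19.1 CPM with overexpression, against 20.1 and 20.8 CPM in control cells (-0.08, SE 0.11, adjusted p = 0.666). Neither passed, and in both the libraries of the groups did not overlap.

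**Figure D2:**
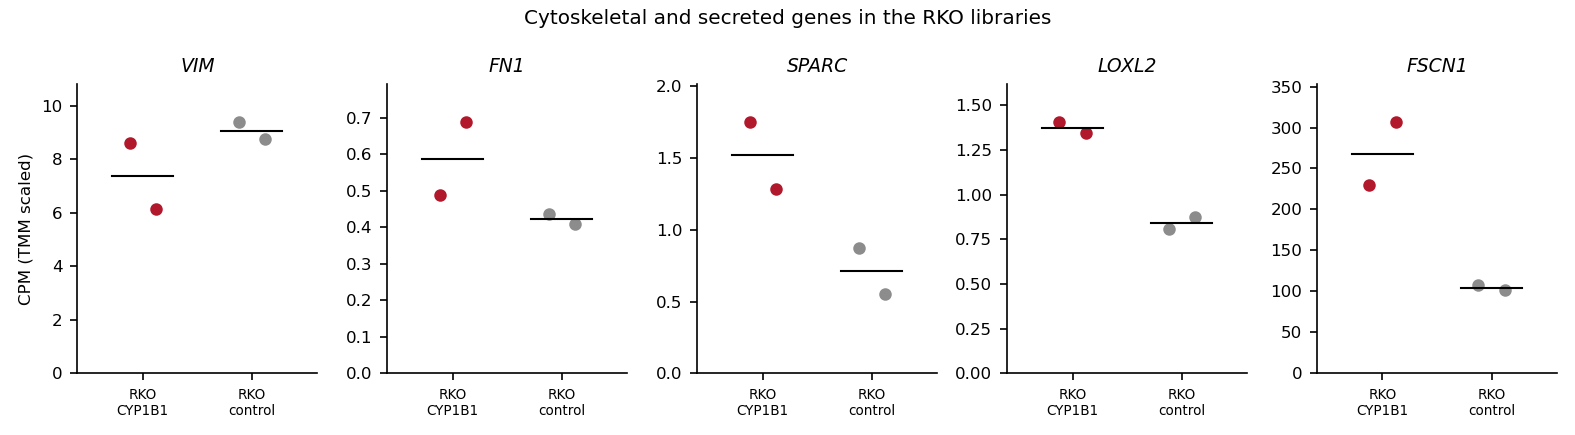
CPM (TMM scaled) of 5 effector genes in the 2 overexpression and 2 control libraries of RKO, on axes from 0; bars are means. FSCN1 lies at 230 and 307 CPM with overexpression, against 108 and 101 CPM in control, while SPARC and LOXL2 lie under 2 CPM in every RKO library.

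**Figure D3:**
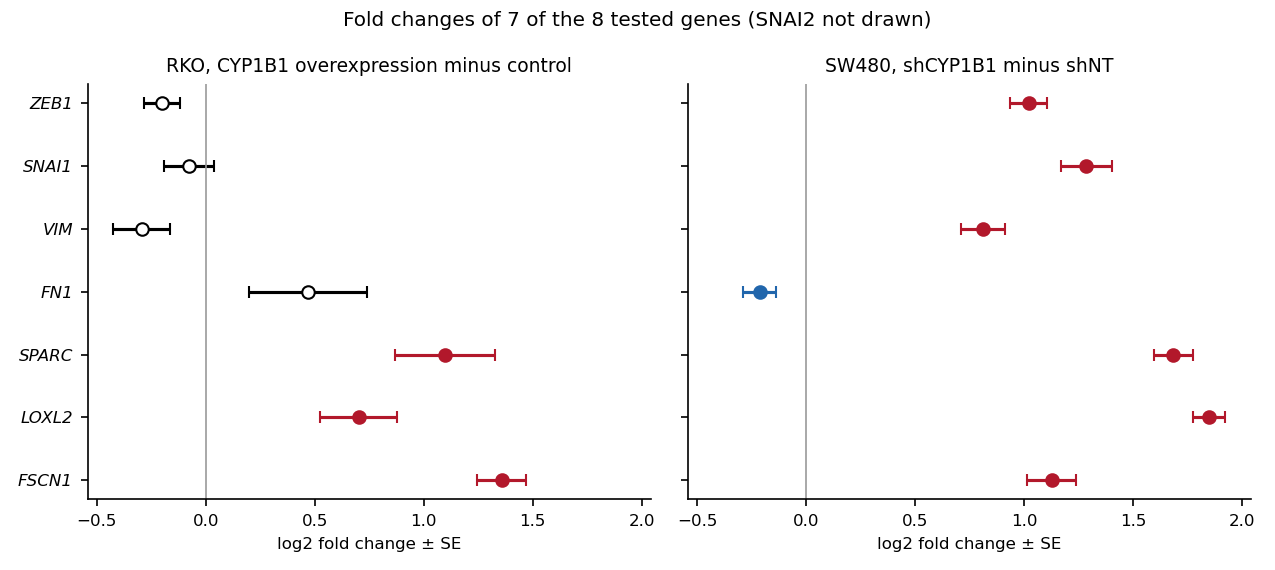
Log2 fold change with its standard error for 7 of the 8 tested members, in RKO (overexpression minus control) and SW480 (shCYP1B1 minus shNT); filled red points were called higher, the filled blue point lower, and open points did not pass. SNAI2, with 4 and 1 counts in RKO, is not drawn. SPARC, LOXL2 and FSCN1 are higher in both panels, ZEB1, SNAI1 and VIM in SW480, and FN1 is the member called lower in SW480.

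The manipulations move CYP1B1 in opposite directions, so the members were also compared on the scale of CYP1B1-high minus CYP1B1-low cells. The RKO effect minus the SW480 effect was the interaction term. The CYP1B1-high cells are unlike in level, with 437 and 519 CPM of CYP1B1 in RKO overexpression, against 1.44 and 2.20 CPM in shNT. RKO control, on the low side, had 0.686 and 0.701 CPM. Of the 8 tested members 6 passed, each with a positive difference, where 42.6% of all genes passed, 21% positive and 21.6% negative. The difference was 2.78 for SPARC (SE 0.24, adjusted p = 1.02e-05), 2.55 for LOXL2 (SE 0.19, adjusted p = 4.58e-06) and 2.48 for FSCN1 (SE 0.16, adjusted p = 1.87e-06). For these 3 genes the level was higher in the manipulated cells of either line, whichever way CYP1B1 had been moved. Over all genes, 635 or 4.49% were called higher in both manipulations. SNAI1 (1.21, SE 0.16), ZEB1 (0.82, SE 0.12) and VIM (0.52, SE 0.16, adjusted p = 0.0252) differed between the lines with called changes in SW480 and none in RKO. The VIM difference was lost without any 1 library other than overexpression replicate 2, with adjusted p from 0.0555 to 0.105, and it was 0.25 without overexpression replicate 1. FN1 (0.26, SE 0.28, adjusted p = 0.586) and SNAI2 did not pass.

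**Figure D4:**
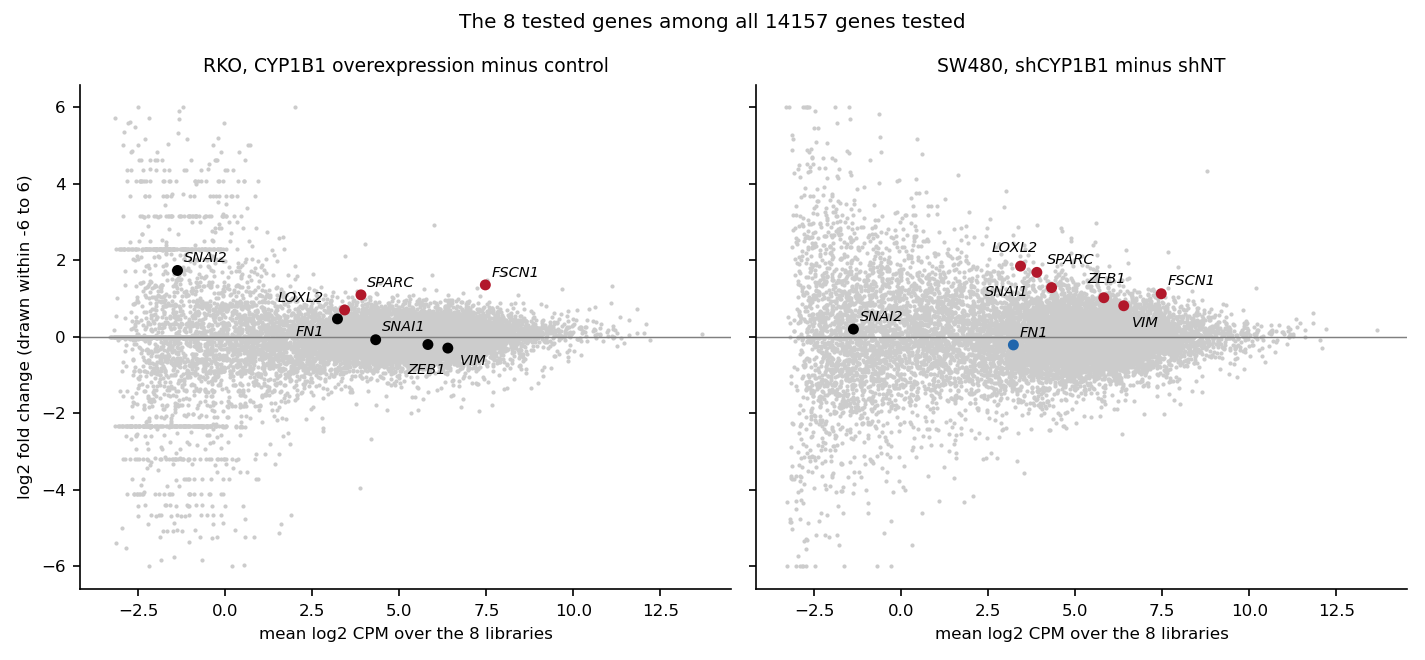
Log2 fold change of the 14157 genes tested (grey) against their mean log2 CPM over the 8 libraries, for RKO and SW480, with values drawn within -6 to 6; named points are the 8 tested members, red if called higher, blue if called lower and black if not called. Of the called members, FSCN1 has the highest value in RKO (1.36) and LOXL2 in SW480 (1.85); the uncalled SNAI2 point in RKO, at 1.74 (SE 1.75), rests on 4 and 1 counts.

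The levels over all 4 groups give each gene its own order. For ZEB1 it was RKO control, RKO overexpression, shCYP1B1 and shNT from high to low, with means of 76.9, 66.8, 63.2 and 31.1 CPM and no overlap between neighbours. RKO overexpression (64.8 and 68.9 CPM) and shCYP1B1 (62.2 and 64.2 CPM) lay close and were not tested against each other. ZEB1 was not called between the RKO groups. For SNAI1 it was shCYP1B1, RKO control, RKO overexpression and shNT, with means of 31.0, 20.5, 19.4 and 12.7 CPM. VIM, SPARC and LOXL2 shared the rank of shCYP1B1 above shNT above both RKO groups. For FSCN1 the shCYP1B1 and overexpression groups overlapped, with means of 278 and 268 CPM, above shNT at 127 CPM and RKO control at 105 CPM.

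On the per-length FPKM scale, FSCN1 made up 80.2% of the summed level of the members in overexpression and 59.0% in control RKO cells, and 12.0% and 10.7% in shCYP1B1 and shNT cells. The sum of the 10 members was 108.5 and 135 FPKM with overexpression, against 66.6 and 64.1 FPKM in control, and 803 and 799 FPKM with shCYP1B1, against 431 and 416 FPKM in shNT cells. SNAI1 exceeded ZEB1 per length in all 8 libraries. The ratio was 1.46 and 1.33 with overexpression, 1.19 and 1.38 in RKO control, 2.38 and 2.33 with shCYP1B1 and 2.05 and 1.87 in shNT libraries.

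Across the 8 libraries, the genes whose log2 CPM followed a member most closely were RAB11FIP1 (Pearson r = 0.989), RNF19B and FGFR1 for ZEB1, LIX1L (0.989), CAMK2N1 and SRXN1 for SNAI1, and TOR4A (0.991), SLC39A7 and FHOD1 for FSCN1. For VIM, FN1, SPARC and LOXL2 the closest genes were IQGAP2, BICC1, CST3 and HOXB6, with r of 0.9994 to 0.9999, over libraries in which the lines lie far apart in these genes. Among the members, SPARC and LOXL2 were the most alike (r = 0.997) and ZEB1 and FN1 the least (r = -0.70). The 8 libraries share 2 lines and 4 groups, and these r describe them only.

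The genes that ZEB and SNAI proteins are known to repress in epithelia were read beside the drivers. With CYP1B1 knockdown in SW480, 14 of the 27 tested fell and 5 rose (9 without overexpression replicate 1 or 2), with a median log2 fold change of -0.95; these are 51.9% and 18.5%, beside 25.3% of all genes in each direction. EPCAM, the epithelial adhesion molecule, had 22.9 ± 0.576 CPM with shCYP1B1 and 131 ± 0.336 CPM in shNT cells (SD, n = 2), and changed by -2.52 (SE 0.09, adjusted p = 3.45e-08). ST14, the epithelial protease matriptase, changed by -1.21 and PKP3, a desmosomal plakophilin, by -0.98. The tight junction genes CLDN3 and TJP3 were among those that rose, by 1.58 and 1.68. CDH1, the classic target of both families, averaged 9.43 CPM with shCYP1B1 and 6.28 CPM in shNT cells and did not pass (0.59, SE 0.23, adjusted p = 0.0552), though it passed without overexpression replicate 1 (0.0232) or 2 (0.0224).

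In RKO, 2 of these 27 genes were called higher and 5 lower with overexpression, with a median of -0.09. These are 7.41% and 18.5%, beside 13.8% of all genes in each direction, so the lower calls are near the share over all genes. The filter kept genes with enough counts in any 1 group, so this and the other lists include genes with few counts in RKO. CDH1, with 13 counts with overexpression and 11 in control, is 1 of them. The share over all genes includes such genes as well: 12068 genes were tested with the RKO libraries fitted alone, against 14157. ESRP1, an epithelial splicing regulator, averaged 0.244 CPM with overexpression and 7.49 CPM in control (log2 fold change -4.89, SE 0.51, adjusted p = 0.000119, and -7.80 without overexpression replicate 1), and OCLN, which encodes occludin, changed by -0.67 (SE 0.12). The count of lower genes was 3 without either control library and 10 without overexpression replicate 1, and that of higher genes was 0 without control replicate 1 and 1 without control replicate 2 or any 1 SW480 library.

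Genes listed as secreted matrix and crosslinking, outside the set, moved both ways. The list, called matrix genes below, also holds genes whose products are not secreted matrix. Among these are the collagen processing genes SERPINH1, P4HA1, P4HA2, PLOD1, PLOD2 and PLOD3 and the integrin genes ITGA5 and ITGB1. In SW480, 13 of 35 rose (8 without shNT replicate 1) and 4 fell (2 without shNT replicate 1 or shCYP1B1 replicate 2), with a median of 0.26, or 37.1% and 11.4% beside 25.3% of all genes in each direction. TGFBI, which encodes a matrix adhesion protein, rose by 1.19 (SE 0.07) to 611.5 CPM with shCYP1B1, against 268 CPM in shNT cells. The fibronectin receptor subunit ITGA5 rose by 1.26 (SE 0.08) while FN1 did not rise. Within the lysyl oxidase family, whose members were picked after their values were seen, LOXL4 rose by 0.90 (SE 0.09, adjusted p = 1.25e-05) and LOXL3 changed by -1.16 (SE 0.20, adjusted p = 0.00049), whereas LOX (-0.37) and LOXL1 (-0.34) did not pass. The higher level of LOXL2 was thus accompanied by changes of both signs among its paralogs.

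In RKO, 8 of the 35 matrix genes rose (3 without control replicate 2 and 5 without any 1 SW480 library) and 6 fell, with a median of 0.17, or 22.9% and 17.1% beside 13.8% of all genes in each direction. SERPINH1, the collagen chaperone HSP47, rose by 0.59 (SE 0.07), P4HA2, a collagen prolyl hydroxylase subunit, by 0.48 (SE 0.07), and TGM2, the tissue transglutaminase, by 0.54 (SE 0.08). ITGA5 changed by -0.49 (SE 0.08) and the matricellular gene CCN1 by -1.01 (SE 0.17). ITGA5 moved in opposite directions in the manipulated cells of the lines.

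Of 29 intermediate filament and actin binding genes, 8 rose in SW480 (5 without shNT replicate 2 or either shCYP1B1 library) and 3 fell (1 without shNT replicate 1 or either shCYP1B1 library, 6 without overexpression replicate 1, 7 without overexpression replicate 2), with a median of 0.07. The 27.6% that rose is near the 25.3% of all genes called higher, and 10.3% fell, where 25.3% of all genes were called lower. TPM2, a tropomyosin, rose by 1.49 (SE 0.09), and VIL1, the villin of the epithelial brush border, changed by -3.19 (SE 0.31), so that knockdown cells held 1.26 CPM, against 11.5 CPM in shNT cells. In RKO 7 rose and 3 fell (1 without control replicate 2 or any 1 SW480 library, 6 without overexpression replicate 1), or 24.1% and 10.3% beside 13.8% of all genes in each direction. LMNA, which encodes the nuclear lamins A and C, rose by 0.92 (SE 0.08).

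Of 16 mesenchymal surface and migration genes, 10 were called higher in SW480 and 2 lower (1 without shNT replicate 1, 0 without any 1 of the other SW480 libraries), with a median of 0.79; these are 62.5% and 12.5%. Over all genes tested, 25.3% were called higher and 25.3% lower in this comparison. CDH11, the cadherin of mesenchymal cells, rose by 2.29 (SE 0.15), PLAUR, the urokinase receptor, by 1.45 (SE 0.09), and CD44, the hyaluronan receptor, by 1.20 (SE 0.07). CDH2, the N-cadherin gene of the textbook cadherin switch, had 0 counts in every SW480 library and 3 counts in all in RKO. In RKO the median was -0.25, with 2 of the 16 higher (1 without control replicate 1, overexpression replicate 2 or any 1 SW480 library) and 2 lower (0 without either control library, 1 without any 1 SW480 library, 4 without overexpression replicate 1), each 12.5% and near the 13.8% over all genes.

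Of 19 other transcription factors of the transition that were tested, 4 rose and 7 fell in SW480 (median -0.17), and 3 rose and 3 fell in RKO (median -0.04; 1 higher without control replicate 1, and 5 lower without either overexpression library). These are 21.1% and 36.8% in SW480, beside 25.3% of all genes in each direction. In RKO they are 15.8% in each direction, near the 13.8% over all genes. The 19 include GSC, which had 0 counts in RKO. They also include TWIST2, PRRX1, PRRX2, TBXT, TCF4, FOXC1 and FOXC2, which had at most 7 counts in either RKO group. A change of these genes in RKO could hardly be called, so the RKO shares of this list say little about them. SNAI3, the third SNAI gene, rose by 2.06 (SE 0.38, adjusted p = 0.000941) in SW480, with 3.68 CPM with shCYP1B1 and 0.883 CPM in shNT cells. FOXQ1, a forkhead factor, changed by -0.97 (SE 0.07) in SW480. In RKO ETS1 averaged 186.5 CPM with overexpression and 375.5 CPM in control, a change of -1.01 (SE 0.08).

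**Figure D5:**
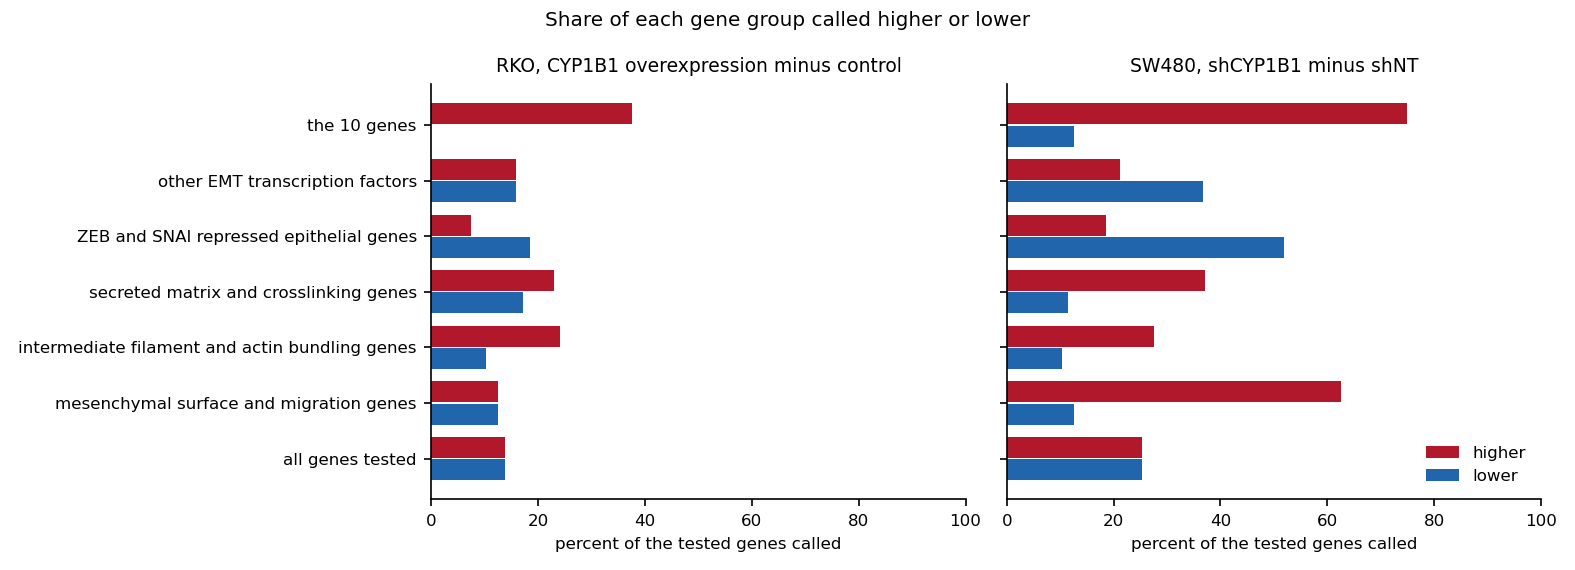
Percent of the tested genes of each group called higher (red) or lower (blue) at an adjusted p below 0.05, with all genes tested at the bottom, for RKO and SW480. In SW480 the 10-gene set and the mesenchymal surface genes have most calls on the higher side and the repressed epithelial genes on the lower side, beside 25.3% in each direction over all genes.

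Markers of other cell types were read beside these changes, since a matrix gene of a mixed sample can come from other cells, and in bulk RNA more cells of a type and more RNA per cell cannot be told apart. The summed level of the 9 fibroblast and pericyte markers in the table was 50.02 to 53.6 CPM with shCYP1B1, against 33.9 to 34.2 CPM in shNT cells, and 18.3 to 23.1 CPM with overexpression, against 14.8 to 22.3 CPM in RKO control, with no marker at 0. COL1A1 averaged 18.9 CPM with shCYP1B1 and 9.46 CPM in shNT cells (1.00, SE 0.27, adjusted p = 0.0085, lost without shNT replicate 1 at 0.101 or shCYP1B1 replicate 2 at 0.064). Of the 8 fibroblast markers tested 2 were called higher in SW480, a count of 0 or 1 without any 1 SW480 library. These 2 are 25%, near the 25.3% of all genes called higher in SW480. The part of these markers in the member changes was not tested. Colorectal epithelial markers went both ways with knockdown, with 3 of 9 higher (5 without overexpression replicate 1 or 2, 1 without shNT replicate 2) and 4 lower. These epithelial calls are 33.3% higher and 44.4% lower, beside 25.3% of all genes in each direction. The 8 immune markers summed to 27.4 to 28.2 CPM with shCYP1B1, against 11.1 to 13.2 CPM in shNT cells. In RKO they summed to 663 to 685 CPM with overexpression, against 691 to 773 CPM in control. In RKO the macrophage gene CD68 was the single one above 1 CPM, at 673 CPM with overexpression and 732 CPM in control. In SW480 2 of the 6 tested were called higher (1 without any 1 SW480 library): CD68, with 23.5 CPM with shCYP1B1 and 6.12 CPM in shNT cells (1.94, SE 0.11), and the T cell gene CD3E, with 0.714 and 0.116 CPM (2.59, SE 0.84, adjusted p = 0.0281). The 2 immune calls are 33.3% of those tested, beside 25.3% of all genes called higher. The endothelial list rested on EGFL7. The sum of that list was 57.3 to 60.0 CPM with shCYP1B1, against 43.9 to 44.7 CPM in shNT cells. In RKO it was 146 to 186 CPM with overexpression, against 133 to 141 CPM in control.

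Reads of overlapping genes limit some of these values. The use of strand in counting is not given in the sources used here, so ZEB1 and ZEB1-AS1, VIM and VIM-AS1, and SPARC and CLMAT3, which lie on opposite strands in GENCODE release 29, cannot be told apart. LOXL2 overlaps ENTPD4 on the same strand.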

How the data were processed

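RNA-seq of 8 libraries was analysed, 2 for each of 4 groups read from the sample titles. The authors deposited whole-number read counts per gene and, for the same genes, FPKM; dividing each count by a fixed gene length and the total of its library gives the deposited FPKM back. A stranded mRNA kit was used, per the labels' protocols. The build was GRCh38.p13 (submitters' processing notes). Aligner, counting tool and strand setting: not given in the sources used here.

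Tests ran on the deposited counts in edgeR 4.0.16 (R 4.3.3) with filterByExpr by group (minimum count 10, total 15), TMM scaling and a quasi-likelihood F test with 1 coefficient per group fitted to all 8 libraries at once. The groups thus shared 1 estimate of the spread of a gene, although the overexpression pair was the least alike. With each line fitted by itself, 2294 genes were called in RKO, against 3907 in the shared fit. In SW480 the number was 9071, against 7167. Benjamini-Hochberg adjustment ran over the 14157 genes tested, with calls at an adjusted p below 0.05. With 2 libraries a side, exact permutation goes no lower than 0.333 and was left out. Intervals and limits cover counting error only. The members, the gene lists and the tests were chosen with earlier results of these data known. Besides the members and CYP1B1, the text names from each list up to 3 genes each way in each comparison with the smallest p, a mean of at least 1 CPM and groups that do not overlap, and the 3 genes most like each member with a mean of at least 5 CPM; other names were chosen after their values were seen.

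Alternatives tried: RLE or plain library size scaling, no filter or 1 CPM in 2 libraries, DESeq2 1.42.0, limma 3.58.1 on log2 of FPKM plus 1 or 0.1, a replicate block, each line by itself, and leaving out each library, where a lone library is taken to vary as the others do. On simulated counts for 14157 genes, the test recovered 55.2%, 77.6% and 75.8% of genes changed by 1.5-fold, 2-fold and 4-fold in RKO, and 62.7%, 80.6% and 87.9% in SW480. The simulation gave all groups the same spread for a gene and changed 67, 67 and 66 genes at these folds. It therefore does not stand for the wider spread of the overexpression pair or for the share of genes called in these data.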

Additional observations from a re-analysis of the deposited data

Results flagged for a closer look

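The CYP1B1-high minus CYP1B1-low effect differed between the lines by the interaction test for 6 members, given here as the RKO effect minus the SW480 effect on the log2 scale. The values were 2.78 for SPARC, 2.55 for LOXL2, 2.48 for FSCN1, 1.21 for SNAI1, 0.82 for ZEB1 and 0.52 for VIM. For SPARC, LOXL2 and FSCN1, every manipulated library of a line lay above every control library of that line. For SNAI1 and ZEB1, the called change was in SW480. The lines also differ in the kind of manipulation, so line and construct cannot be told apart.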

How the results depend on the processing

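In SW480 the higher calls of ZEB1, SNAI1, VIM, SPARC, LOXL2 and FSCN1, and in RKO that of FSCN1, held in all 17 alternatives. The number of genes called in RKO fell to 2294 with the RKO libraries alone (1133 higher, 1161 lower) and ranged from 1769 to 5621 when 1 library was left out (905 to 2691 higher, 864 to 2930 lower). Members called higher in RKO numbered 1 with limma on FPKM plus 1 and 1 in RKO alone, and 1 to 3 with a library left out; members called lower numbered 0 to 1. The single lower call in SW480, FN1, became 0 with RLE scaling, without the filter, with DESeq2 and with limma on FPKM plus 0.1, and ranged from 0 to 1 with a library left out. The wider E-box gave 3 members with a match. SNAI2 reversed to -2.34 in RKO and -2.14 in the difference between lines without overexpression replicate 2, where the range was -2.34 to 4.08 and -2.14 to 4.29, and to -0.31 in SW480 without shNT replicate 1, with a range of -0.31 to 1.02. The FN1 difference between lines reversed to -0.22 and -0.0896 with limma on FPKM plus 1 and 0.1, and ranged from -0.007015 to 0.486 with a library left out. The cause was not tested; SNAI2 in RKO rests on 4 and 1 counts, and FN1 there on 40 and 28.

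The replicate numbers did not pair the libraries: the correlation of same-numbered deviations was -0.03 in RKO and -0.02 in SW480. With the replicate block, members called lower in SW480 numbered 0, since FN1 had the same change of -0.21 with an adjusted p of 0.0545, and no other member changed its call in RKO or SW480.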
